A study of Mus musculus with 2 samples.

Results

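The mitochondrial SLC25 carriers were described across a single pair of macrophage cultures. The carriers were taken as the protein-coding mouse genes whose symbol starts with Slc25a, without the citrate carrier gene Slc25a1, and 46 of the 34745 gene identifiers in the expression table met this rule. RNA sequencing had been done on mouse bone marrow-derived macrophages, which are primary cells matured in culture from marrow precursors of C57BL/6 mice. An AclyE14-ASO library (1 sample) was compared with a Control-ASO library (1 sample). An ASO is an antisense oligonucleotide, a short synthetic strand that pairs with a chosen RNA, and the labels name the AclyE14-ASO after Acly, the gene of ATP-citrate lyase. Cells of both groups were transfected with their ASO and also received lipopolysaccharide (LPS), a bacterial product that activates macrophages. The labels do not state the mice's age or sex, how many mice gave each culture, or the LPS dose and duration.

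Carriers of the SLC25 family are small proteins with a shared repeated fold that sit mostly in the inner mitochondrial membrane. Each exchanges or co-transports particular solutes between cytosol and matrix, among them ADP and ATP, phosphate, dicarboxylates, amino acids, iron and cofactors. In macrophages they connect mitochondrial respiration with cytosolic synthesis. ATP-citrate lyase stands downstream of one of them, since it cleaves the citrate that the SLC25A1 protein exports.

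With AclyE14-ASO, 5 carriers were lower by at least 1.5-fold and none was higher by that much. FPKM is a fragment count scaled to gene length and library depth, and the 27 of 46 carriers that averaged 1 FPKM or more across the 2 libraries are called measured. The lower carriers were Slc25a44 and Slc25a13, which carry amino acids, Slc25a33, which carries pyrimidine nucleotides, Slc25a10, which carries dicarboxylates, and Slc25a32, a carrier of folate and FAD. They were 5 of 27, or 18.5%, while 14.4% of all 8658 measured genes were lower by 1.5-fold. Higher calls took 9.4% of all measured genes and 0 of 27 carriers. The whole 95% counting interval lay beyond 1.5-fold for 2 lower carriers, Slc25a44 and Slc25a13 (7.41% of carriers and 5.94% of all measured genes). At 2-fold 1 carrier was lower, Slc25a13, where 3.36% of all measured genes were lower and 4.9% higher. The counting interval lay wholly below 1 for 8 carriers (29.6%, against 44.2% of all measured genes) and wholly above 1 for 7 (25.9%, against 21.7%). The carriers' share of lower calls was near that of all genes.

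Ratios here are counts per library total, AclyE14-ASO over Control-ASO, with exact 95% intervals in parentheses. The intervals cover counting error only. They treat reads as separate molecules, and no marking of PCR copies is stated, so they may be too narrow even for that. With 1 library per group, no test was possible, no difference has a replicate check, and variation between cultures cannot be told apart from the ASO. The median carrier had a log2 ratio of -0.10, and the median of all measured genes was -0.16. Scaling with TMM factors, which trim extreme genes, added 0.10 to every log2 ratio, and centring on the median gene added 0.14. The carrier median then became -0.003 with TMM and 0.03 when centred. Under both scalings Slc25a10 and Slc25a32 left the lower calls and Slc25a30 joined as higher, which gave 1 higher and 3 lower carriers. The share of all measured genes called under these scalings is not given, so these counts are not read as particular to the carriers. The ratios of Slc25a14, Slc25a25 and Slc25a37, each just below 1 by library totals, turned above 1 under both, and that of Slc25a4 did so when centred.

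**Figure D1:**
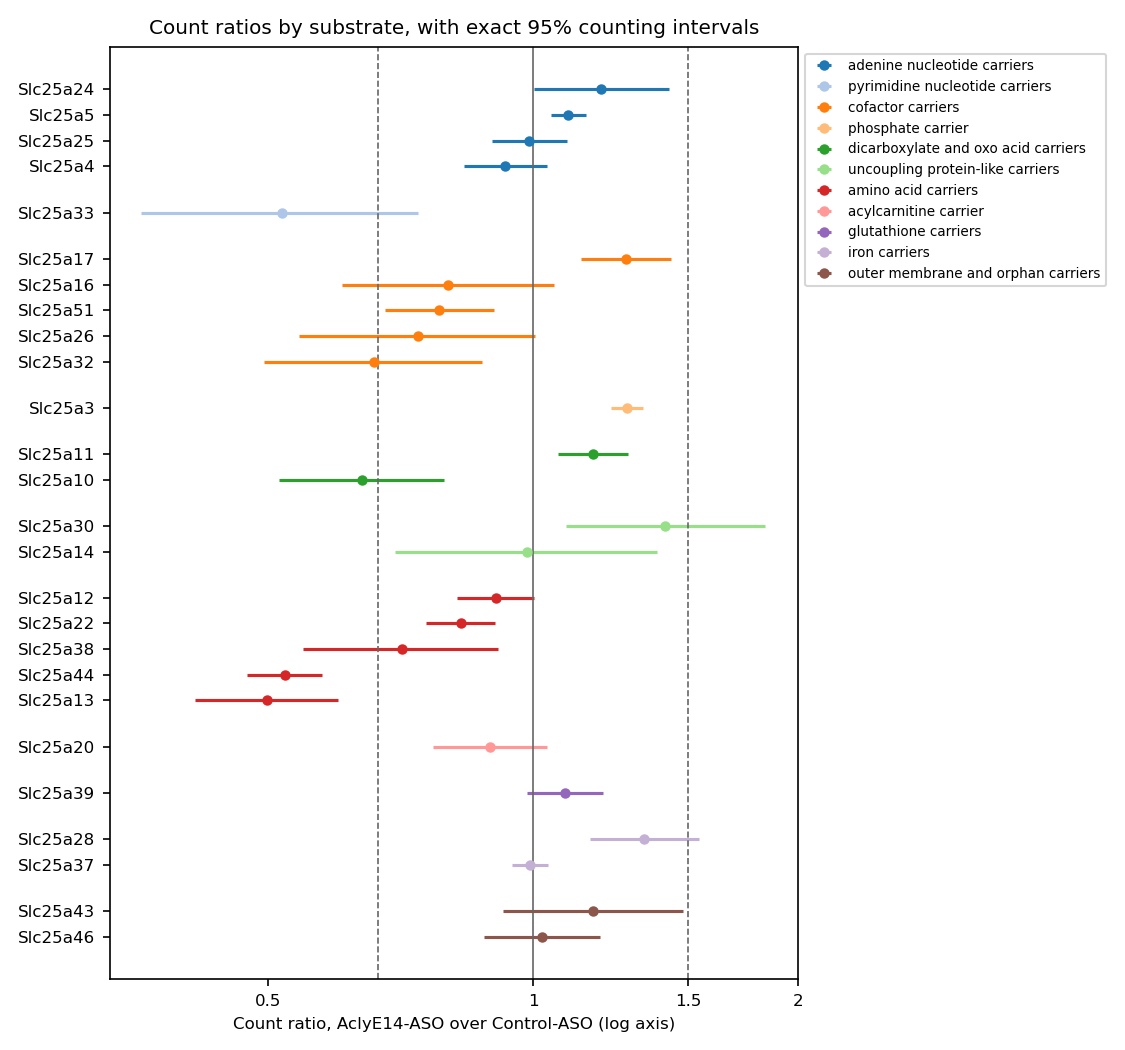
Count ratio of 26 of the 27 measured carriers, AclyE14-ASO over Control-ASO, on a log axis, by substrate group. Points are the ratios of 1 library to 1 library, bars are exact 95% counting intervals, and dashed lines mark 1.5-fold in either direction. Slc25a13 and Slc25a44 have bars wholly left of the lower dashed line, and no point lies right of the upper one.

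The libraries held 12751076 counts (AclyE14-ASO) and 14215397 counts (Control-ASO). Acly itself was at 7.35 FPKM in the AclyE14-ASO library, against 13.3 FPKM in the Control-ASO library (ratio 0.553, 0.506 to 0.603). Slc25a1, left out by the rule, was at 8.39 against 10.1 FPKM (ratio 0.828, 0.727 to 0.944). Macrophage markers were abundant in both libraries: 12 of 14 listed genes were measured, 5 were higher and 1, Cd68, was lower, and only Cx3cr1 was at 0 in both. Their summed level was 15561 against 12254 FPKM, of which Lyz2 made up 12276 against 9798 FPKM. Stromal markers were higher in the AclyE14-ASO library, where all 8 measured of 12 listed genes were called higher and the sum was 215 against 50.2 FPKM, with no listed gene at 0. Of 12 cell cycle genes 8 were measured and 7 were higher, with sums of 90.5 against 77.1 FPKM, or 25.6 against 7.96 FPKM without Pcna, the member that was not higher. Of 13 genes listed as lymphocyte, neutrophil and erythroid markers 2 were measured, S100a8 and Pf4, both higher. The list's sum was 45.6 against 21.4 FPKM, of which S100a8 alone made up 41.4 against 19.7 FPKM. Another 7, among them Cd3e, Ly6g, S100a9, Elane and Hbb-bs, were at 0 in both libraries, so the sum does not describe these cell types. The part of these marker differences in the carrier ratios was not tested, and in bulk RNA fewer cells of a type cannot be told apart from less RNA per cell.

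Comparing levels between carriers needs care with gene length. The length behind each deposited FPKM, worked back from its count, exceeded the annotated exons of the gene in GENCODE M21 for 21 of the 27 measured carriers. It also did so for 71.6% of the 10064 genes with over 20 counts in both libraries, so this is not particular to the carriers. For the carriers the length came to 0.475 to 6.10 times the longest coding transcript (median 1.95). For Slc25a5 it was 2994 bases, which equals the summed length of all annotated transcripts of the gene. Slc25a22, for which 17138 bases were used against a longest coding transcript of 2811 bases, is low in FPKM for that reason, while Slc25a30, for which 1706 bases were used against 3588, is high. Levels are given below in deposited FPKM and, where carriers are compared, also as RPKM on the longest coding transcript (the count scaled to that transcript's length and to the library total, here coding RPKM). Ratios between libraries do not depend on the length.

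Most of the carrier RNA came from a few genes. Summed over the 46 carriers the level was 331 FPKM in the AclyE14-ASO library, against 314 FPKM in the Control-ASO library, and the summed counts had a ratio of 1.01 (0.995 to 1.03). In FPKM the 2 most abundant carriers, Slc25a5 and Slc25a3, held 42.0% of the AclyE14-ASO sum and 38.5% of the Control-ASO sum. On coding RPKM the same pair held 56.0% and 50.8%. The 7 most abundant in FPKM held 75.5% and 69.5% of the FPKM sums, and 78.0% and 72.2% on coding RPKM. On coding RPKM, Slc25a3 (230) and Slc25a5 (229) led the AclyE14-ASO library nearly level, while Slc25a5 (208) led Slc25a3 (180) in the Control-ASO library. Slc25a37, Slc25a11 and Slc25a39 followed in that order in both libraries on this scale.

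**Figure D2:**
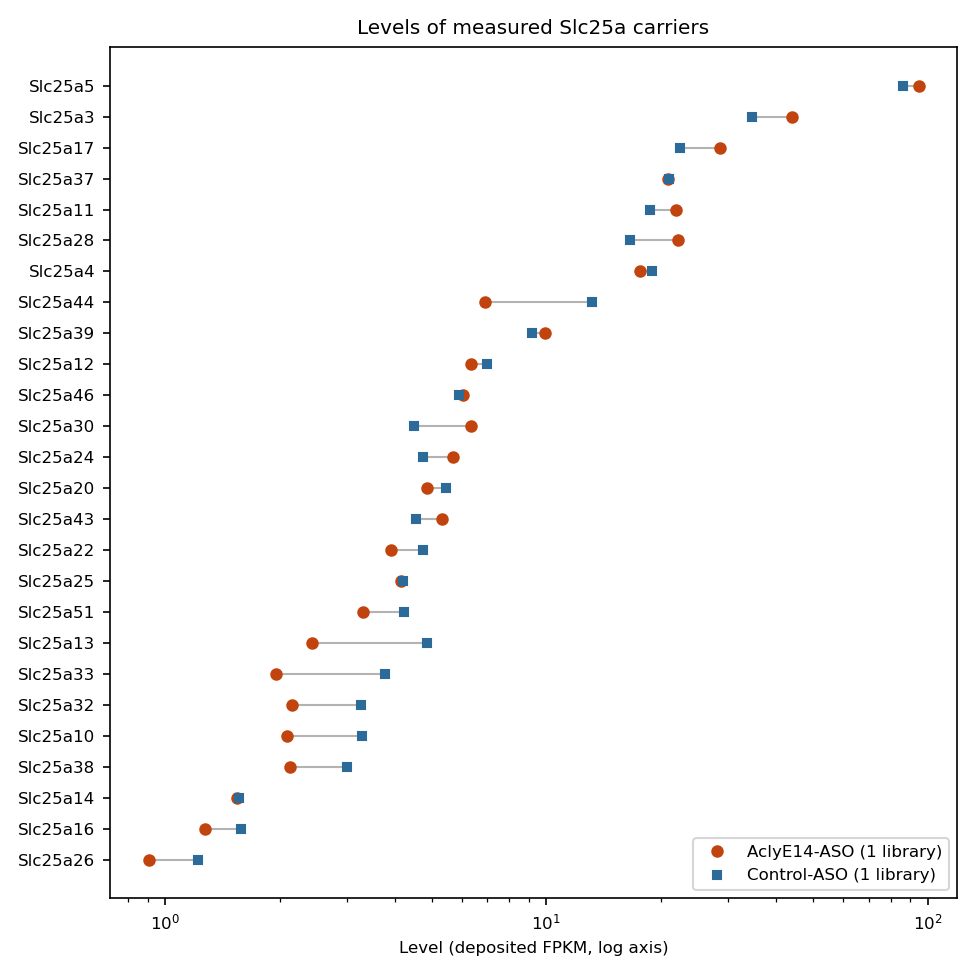
Deposited FPKM of 26 of the 27 measured carriers on a log axis, with the AclyE14-ASO library as circles and the Control-ASO library as squares. Slc25a5 stands highest at 94.6 and 86.3 FPKM, and the widest gaps with the circle on the left belong to Slc25a44, Slc25a13 and Slc25a33.

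The ADP/ATP translocases export the ATP made by oxidative phosphorylation in exchange for ADP. Slc25a5 (ANT2; ENSMUSG00000016319, chromosome X, 36795651 to 36798807, plus strand, GRCm38) was at 94.6 FPKM from 3613 counts in the AclyE14-ASO library, against 86.3 FPKM from 3673 counts in the Control-ASO library. Its ratio of 1.10 (1.05 to 1.15) was a small difference in which the AclyE14-ASO library was the higher one. Slc25a4 (ANT1), the form best known from heart and muscle, was at 17.6 against 18.9 FPKM (ratio 0.930, 0.834 to 1.04). Slc25a31 (ANT4), known from testis, had 0 counts in both libraries. The calcium-regulated ATP-Mg/phosphate carriers adjust the matrix pool of adenine nucleotides. Slc25a24 was at 5.68 against 4.75 FPKM (ratio 1.20, 1.002 to 1.43) and Slc25a25 at 4.16 against 4.20 FPKM (ratio 0.990, 0.897 to 1.09). Slc25a23 had 3 against 4 counts and Slc25a41 had 0 in both. The 7 adenine nucleotide carriers together had a count ratio of 1.06 (1.02 to 1.10), and none of the 4 measured passed 1.5-fold.

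Slc25a3 brings phosphate for ATP synthesis, and also copper, into the matrix. It lies on chromosome 10, 91116574 to 91124059, minus strand (GRCm38), and was at 44.2 FPKM from 4736 counts in the AclyE14-ASO library, against 34.6 FPKM from 4136 counts in the Control-ASO library. The ratio was 1.28 (1.22 to 1.33), within 1.5-fold. Its share of the summed carrier level was 28.1% in the AclyE14-ASO library and 23.6% in the Control-ASO library on coding RPKM, and 13.4% and 11.0% in FPKM.

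The dicarboxylate carriers differed from each other. Slc25a11, the oxoglutarate/malate carrier and one arm of the malate-aspartate shuttle, was at 21.8 FPKM (977 counts) in the AclyE14-ASO library, against 18.7 FPKM (931 counts) in the Control-ASO library. The ratio was 1.17 (1.07 to 1.28). It shares exon sequence with Rnf167 on the opposite strand, and whether counting used the strand is not given, so its value is uncertain. Counted together, Slc25a11 and Rnf167 stood at 1.05 (0.971 to 1.14), and 1 lay inside these limits. That sum takes in all Rnf167 reads (147 against 258 counts), while 189 exon bases are shared. It cannot show how many reads went to either gene. Slc25a10, which exchanges malate and succinate for phosphate (chromosome 11, 120491840 to 120499187, plus strand), was at 2.09 FPKM (137 counts), against 3.28 FPKM (239 counts). Its ratio of 0.639 (0.514 to 0.792) passed the 1.5-fold limit, with an interval that spanned it. Slc25a21, the oxodicarboxylate carrier of lysine and tryptophan breakdown, had 0 counts in both libraries.

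All 5 measured amino acid carriers had ratios below 1, and the 9 carriers of the group together had a count ratio of 0.705 (0.670 to 0.741). Over all measured genes 64.9% had a ratio below 1. The median log2 ratio of the 5 was -0.50, against -0.16 over all measured genes. Slc25a44, a carrier of branched-chain amino acids (ENSMUSG00000050144, chromosome 3, 88410498 to 88425139, minus strand), was at 6.89 FPKM from 611 counts in the AclyE14-ASO library, against 13.2 FPKM from 1304 counts in the Control-ASO library. That is a ratio of 0.522 (0.474 to 0.575), below which lay 3.95% of measured genes. Slc25a13 (citrin), an aspartate/glutamate exchanger of the malate-aspartate shuttle (ENSMUSG00000015112, chromosome 6, 6041218 to 6217173, minus strand), was at 2.42 FPKM from 167 counts, against 4.85 FPKM from 373 counts. Its ratio of 0.499 (0.413 to 0.601) was the lowest among the measured carriers.

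The other amino acid carriers differed less. Slc25a12 (aralar), the other aspartate/glutamate exchanger, was at 6.34 against 6.99 FPKM (ratio 0.907, 0.820 to 1.003), an interval that includes no difference. Slc25a22, a glutamate carrier, was at 3.92 against 4.74 FPKM (ratio 0.827, 0.756 to 0.904). Slc25a38, which supplies glycine for heme synthesis, was at 2.12 against 3.00 FPKM (ratio 0.709, 0.548 to 0.913). The ornithine carrier Slc25a15 was just short of the level limit, at 0.750 against 1.14 FPKM (33 against 56 counts; ratio 0.657, 0.414 to 1.03). Slc25a29, a carrier of basic amino acids, had 1 against 2 counts, Slc25a18, the other glutamate carrier, 1 against 0, and Slc25a2 0 in both.

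Pyrimidine nucleotides reach the matrix for the synthesis of mitochondrial DNA and RNA through Slc25a33 and Slc25a36. Slc25a33 (ENSMUSG00000028982, chromosome 4, 149744036 to 149774277, minus strand) was at 1.95 FPKM from 47 counts in the AclyE14-ASO library, against 3.77 FPKM from 101 counts in the Control-ASO library. The ratio was 0.519 (0.359 to 0.740), and the low counts left an interval that spanned the limit of 1.5-fold. Slc25a36 was below the level limit in FPKM, at 0.822 against 1.01, yet had 160 against 220 counts (ratio 0.811, 0.657 to 0.998), because 15262 bases were used as its length. A pseudogene, Gm13217, matches it closely over 544 bases and had 10 against 11 counts.

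Upstream sequences are shown for the lower carriers with a window in the RefSeq promoter table (GRCm38.p6), and for Slc25a3, which lay on the other side of 1, as a contrast. The table held windows for 35 of the 46 carriers. Each line gives the 250 bases before the start used in that promoter table, 5′ to 3′ on the strand of the gene, in lower case. That start need not be the edge of the gene span given above, which is from GENCODE. The windows of Slc25a33 and Slc25a3 run into that span. Capitals mark either the E-box CACGTG or the NRF1 core, which is GCGC, any 2 bases and GCGC again, and the CRE TGACGTCA was searched as well, each on both strands. The letters were chosen after the values were seen.
Slc25a13 (chr6:6217174-6217423, minus): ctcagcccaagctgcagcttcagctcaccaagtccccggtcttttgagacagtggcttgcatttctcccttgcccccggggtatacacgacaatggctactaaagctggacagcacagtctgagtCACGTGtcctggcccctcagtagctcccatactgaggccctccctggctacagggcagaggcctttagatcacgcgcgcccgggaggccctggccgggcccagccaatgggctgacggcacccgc
Slc25a33 (chr4:149774268-149774517, minus): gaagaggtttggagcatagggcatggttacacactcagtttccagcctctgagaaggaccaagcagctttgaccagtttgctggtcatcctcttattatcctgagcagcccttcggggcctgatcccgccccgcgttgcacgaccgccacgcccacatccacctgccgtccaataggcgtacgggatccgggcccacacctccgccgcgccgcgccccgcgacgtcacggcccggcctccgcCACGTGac
Slc25a10 (chr11:120491587-120491836, plus): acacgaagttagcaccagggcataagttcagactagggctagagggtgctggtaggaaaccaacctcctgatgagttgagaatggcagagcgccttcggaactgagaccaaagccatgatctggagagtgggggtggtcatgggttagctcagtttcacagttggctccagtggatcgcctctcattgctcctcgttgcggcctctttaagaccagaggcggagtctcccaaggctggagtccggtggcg
Slc25a3 (chr10:91123968-91124217, minus): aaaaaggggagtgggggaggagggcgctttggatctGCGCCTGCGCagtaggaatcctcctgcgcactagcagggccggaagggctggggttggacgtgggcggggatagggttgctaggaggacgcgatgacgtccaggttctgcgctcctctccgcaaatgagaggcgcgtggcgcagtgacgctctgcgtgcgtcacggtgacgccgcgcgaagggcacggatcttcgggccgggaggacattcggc

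The E-box, the binding motif of MYC, USF and related factors, occurred in the windows of Slc25a13 (125 bases before the start) and Slc25a33 (8 bases before it). The Slc25a33 match lies inside the GENCODE span of the gene, not upstream of it. The E-box also occurred in the windows of Slc25a14 (ratio 0.983), Slc25a15, Slc25a36 and the undetected Slc25a31. Counted by window, since a gene can have more than 1, the E-box occurred in 7 of the 45 carrier windows and in 6.02% of all 32851 windows of this length. The difference was not tested. Slc25a10 held none of the searched motifs. The NRF1 core occurred in 2 of the 45 carrier windows (Slc25a3 and Slc25a31) and in 4.98% of all windows. The CRE occurred in 2 of the 45 (Slc25a25 and Slc25a36) and in 1.55% of all windows. No matches of different motifs overlapped in these windows, and a match is a description of the sequence only.

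Cofactor carriers lay mostly below 1, apart from the peroxisomal member, as did 64.9% of all measured genes. The carriers of the group together had a count ratio of 0.942 (0.875 to 1.01), an interval that includes 1. Slc25a32 (chromosome 15, 39091231 to 39112716, minus strand), the folate and FAD carrier, was at 2.16 FPKM from 81 counts in the AclyE14-ASO library, against 3.27 FPKM from 137 counts in the Control-ASO library. Its ratio was 0.659 (0.494 to 0.874), just past the limit. Slc25a51, which imports NAD+, was at 3.31 against 4.23 FPKM (ratio 0.782, 0.678 to 0.902). The interval included no difference for the coenzyme A carrier Slc25a16 (1.27 against 1.59 FPKM; ratio 0.801, 0.606 to 1.06) and for the S-adenosylmethionine carrier Slc25a26. Slc25a26 was at 0.905 against 1.22 FPKM (ratio 0.740, 0.543 to 1.004) and shares exon sequence with Lrig1 on the opposite strand. The sum with Lrig1, which takes in all Lrig1 reads (102 against 56 counts), had a ratio of 1.18 (0.945 to 1.46). Such a sum cannot show how many reads from the 144 shared bases went to either gene. The direction of Slc25a26 is therefore uncertain. Slc25a17, which moves adenine nucleotides and coenzyme A across the peroxisomal membrane, was at 28.6 FPKM (607 counts), against 22.4 FPKM (531 counts; ratio 1.27, 1.13 to 1.43). The coenzyme A carrier Slc25a42 had 4 against 3 counts.

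Iron enters mitochondria for heme and iron-sulfur cluster synthesis through the mitoferrins. Slc25a37 (mitoferrin 1), the form that supplies erythroid heme synthesis, was at 20.8 FPKM from 3238 counts in the AclyE14-ASO library, against 20.9 FPKM from 3638 counts in the Control-ASO library. Its ratio was 0.992 (0.946 to 1.04), an interval that includes 1. Slc25a28 (mitoferrin 2), the more widely expressed form, was at 22.1 FPKM (427 counts), against 16.5 FPKM (356 counts; ratio 1.34, 1.16 to 1.54). On coding RPKM mitoferrin 1 was the more abundant form in both libraries, at 60.8 against 21.8 for mitoferrin 2 in the AclyE14-ASO library and 61.3 against 16.3 in the Control-ASO library.

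The remaining carriers stayed within 1.5-fold where measured. The glutathione carrier Slc25a39 was at 9.94 against 9.15 FPKM (ratio 1.09, 0.984 to 1.20), and its relative Slc25a40 had 15 against 35 counts (ratio 0.478, 0.242 to 0.898), far below the level limit. The acylcarnitine carrier Slc25a20, which passes fatty acids to beta-oxidation, was at 4.87 against 5.46 FPKM (ratio 0.893, 0.770 to 1.04). Slc25a30, a relative of the uncoupling proteins, had the highest ratio of the measured carriers, 1.41 (1.09 to 1.83), from 138 against 109 counts (6.34 against 4.49 FPKM). Its relative Slc25a14 was at 1.54 against 1.57 FPKM (ratio 0.983, 0.697 to 1.38). Slc25a46, an outer membrane member linked to mitochondrial shape, was at 6.05 against 5.91 FPKM (ratio 1.02, 0.880 to 1.19). The orphan carrier Slc25a43 was at 5.33 against 4.56 FPKM (ratio 1.17, 0.924 to 1.48).

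Of the 19 carriers below the level limit, 7 had 0 counts in both libraries: Slc25a2, Slc25a21, Slc25a31, Slc25a34, Slc25a41, Slc25a48 and Slc25a54. A count of 0 allows up to 3 counts in either library. Among the other 12, Slc25a45, a little-characterised member (chromosome 19, 5877808 to 5885878, plus strand), is singled out here after its values were seen. It had 24 counts (0.355 FPKM) in the AclyE14-ASO library, against 105 counts (1.39 FPKM) in the Control-ASO library, a ratio of 0.255 (0.156 to 0.400) with a whole interval beyond 1.5-fold. Of the measured genes, all above it in mean FPKM, 0.381% had a lower ratio. Ratios spread more at low levels, with a log2 standard deviation of 0.784 at 1 to 3 FPKM against 0.545 at 10 FPKM or more. Slc25a45 was left out of the calls because its mean over the libraries was under 1 FPKM. That level rests on a length of 5295 bases, against a longest coding transcript of 2599 bases. On coding RPKM it was at 0.724 in the AclyE14-ASO library, against 2.84 in the Control-ASO library. Slc25a45, Slc25a15, Slc25a26 and Slc25a36 reached 1 FPKM in the Control-ASO library only, which is 4 of the 30 carriers that reached it in at least 1 library. Slc25a26 alone of these had a mean above the limit. This depends on the deposited lengths. On coding RPKM Slc25a26 (2.98 against 4.03) and Slc25a36 (2.40 against 2.96) were above 1 in both libraries, and Slc25a15 and Slc25a45 in the Control-ASO library only. No carrier reached 1 FPKM in the AclyE14-ASO library only. Of all 9042 genes at 1 FPKM in at least 1 library, 4.99% did so in the AclyE14-ASO library only and 4.74% in the Control-ASO library only. Slc25a35 had 5 against 14 counts (with exons shared with Rangrf on the opposite strand), Slc25a53 18 against 17, Slc25a47 4 against 3 and Slc25a27 2 against 0.

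The balance within pairs of related carriers does not depend on the scaling between the libraries. Of 9 pairs with a shared substrate 7 had enough counts to compare, and in 6 of them the interval for the ratio of pair ratios excluded 1. Among single measured genes the counting interval excluded 1 for 66%, so nothing particular to these pairs can be read from that count. Slc25a13 per Slc25a12 was 0.487 in the AclyE14-ASO library, against 0.885 in the Control-ASO library on coding RPKM, a ratio of 0.550 (0.444 to 0.681), so the weight of the aspartate/glutamate pair lay further towards aralar. Slc25a10 per Slc25a11 was 0.119 against 0.217 (ratio of ratios 0.546, 0.431 to 0.690), with the Slc25a11 counts uncertain as above. Slc25a37 per Slc25a28 was 2.79 against 3.76 (0.742, 0.638 to 0.863). Slc25a5 per Slc25a4 was 9.21 against 7.81 (1.18, 1.05 to 1.33). These 4 pairs had both carriers above the level limit. Slc25a33 per Slc25a36 (0.640, 0.418 to 0.972) and Slc25a39 per Slc25a40 (2.27, 1.20 to 4.51) each rested on a carrier below it. For Slc25a24 per Slc25a25 the interval included 1 (1.21, 0.986 to 1.48).

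**Figure D3:**
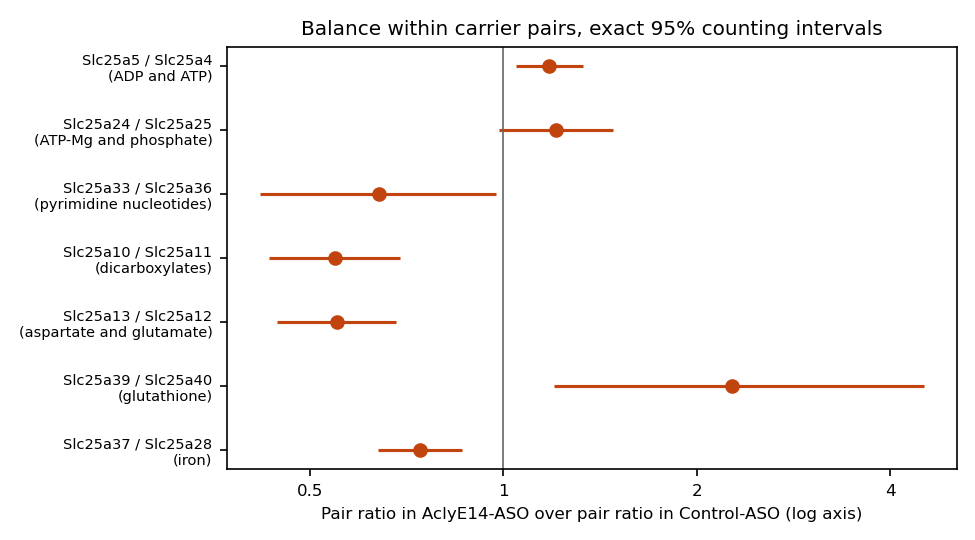
Ratio within each pair of carriers in the AclyE14-ASO library over the same ratio in the Control-ASO library, on a log axis, with exact 95% counting intervals. The pairs Slc25a10 / Slc25a11 (0.546) and Slc25a13 / Slc25a12 (0.550) lie farthest left of 1, and Slc25a39 / Slc25a40 (2.27) lies farthest right with the widest bar.

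The more abundant carriers in FPKM tended to have the higher ratios. All 8 measured carriers with a mean under 3 FPKM had ratios below 1, with a median log2 ratio of -0.47, against -0.17 over all 2649 genes at that level, of which 63.5% had ratios below 1. Among the 8, Slc25a26 was above 1 when summed with all Lrig1 reads, a sum with the limit given above, and Slc25a14 was above 1 under TMM and centring. At 10 FPKM or more, 5 of 8 carriers had ratios above 1 and the median was 0.18, against -0.10 over all 3135 genes at that level, with Slc25a44 as the carrier called lower. The 11 carriers between these limits had a median of -0.01, against -0.20 over 2874 genes. Across the 27 carriers the log2 ratio and the log2 mean FPKM had a Pearson r of 0.52 and a Spearman rho of 0.66, and across 8655 measured genes with counts in both libraries r was 0.01 and rho 0.06. On coding RPKM the values over the carriers were 0.42 and 0.40, and on summed counts, which need no length, 0.34 and 0.35. The relation was thus weaker on scales that do not use the deposited lengths. These correlations are across genes that share the same 2 libraries and are given as descriptions. Coding transcript length had an r of -0.27 with the log2 ratio over the carriers and of -0.10 over measured protein-coding genes, and its part in the ratios was tested only by removing its trend, which left 4 lower carriers.

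**Figure D4:**
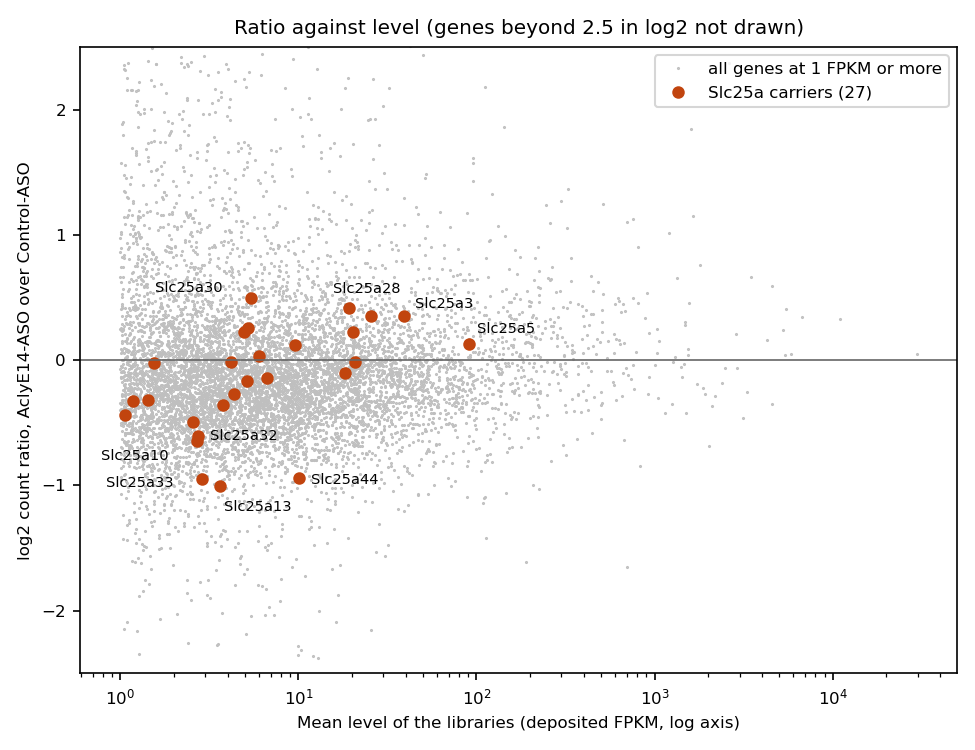
log2 count ratio, AclyE14-ASO over Control-ASO, against the mean deposited FPKM of the libraries (log axis) for all measured genes (grey) and the 27 carriers (orange). The carriers under 3 FPKM all lie below 0, and 5 of the 8 at 10 FPKM or more lie above it, while the cloud of all genes has no slope of that size (Spearman rho 0.66 over carriers, 0.06 over all genes). On summed counts rho over the carriers was 0.35.

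Other mitochondrial genes set the carriers in context. Among 3 measured carrier-fold proteins under other symbols, none passed 1.5-fold, with the uncoupling protein Ucp2 at 26.0 FPKM (AclyE14-ASO) against 19.2 FPKM (Control-ASO; ratio 1.36, 1.29 to 1.43) and Mtch1, an outer membrane protein named after its value was seen, at 15.7 against 10.6 FPKM (ratio 1.48, 1.34 to 1.64). Of 18 genes for carrier import and membrane channels 1 was lower, Tomm40, the import pore of the outer membrane (3.37 against 5.45 FPKM; ratio 0.619, 0.528 to 0.725), and the list median was -0.21. The most abundant member, Timm8b, was at 116 against 131 FPKM. Of 12 other inner membrane carriers 1 was lower, the ABC transporter Abcb10 (ratio 0.578, 0.428 to 0.775; median -0.28), and the most abundant, the calcium uniporter regulator Micu2, was at 24.2 against 22.5 FPKM.

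Enzymes that work with the carriers were mostly within 1.5-fold. Of 6 measured malate-aspartate and glycerol phosphate shuttle enzymes 1 was lower, Gpd1l (1.51 against 2.58 FPKM; ratio 0.586, 0.475 to 0.719; list median -0.16), while Mdh1, the cytosolic malate dehydrogenase, was at 38.3 against 34.7 FPKM. Of 14 ATP synthase subunits none was called in either direction (median -0.06), with Atp5b at 99.5 against 112 FPKM. Of 20 iron-sulfur cluster and heme genes 1 was higher, Isca2 (30.9 against 14.3 FPKM; ratio 2.17, 1.80 to 2.61), and 3 were lower. These were Cpox (ratio 0.526), Hscb (ratio 0.629) and Hspa9, the mitochondrial HSP70, at 93.3 against 145 FPKM (ratio 0.645). Their median was -0.31. Of 11 ornithine, proline and glycine enzymes Odc1, which makes putrescine from ornithine, was higher (279 against 171 FPKM; ratio 1.64, 1.58 to 1.69), and the list median was -0.21.

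Fatty acid entry and mitochondrial gene expression completed the lists. Of 9 carnitine shuttle and acyl-CoA genes 1 was lower, Crat (ratio 0.655, 0.548 to 0.780; median -0.19), and Acadl, the most abundant, was at 55.0 against 65.9 FPKM. Of 9 biogenesis and nucleoid genes 2 were lower, the mitochondrial RNA polymerase Polrmt (ratio 0.552, 0.432 to 0.702) and the nuclear receptor Esrra (8.04 against 13.0 FPKM; ratio 0.619, 0.548 to 0.698), with a median of -0.40. Of 12 measured mitochondrially encoded subunits 1 was higher, mt-Nd6, with 60 against 27 counts, and the median was -0.35, with mt-Co1 at 4023 against 5131 FPKM. Over all 10 lists 3 of 114 genes were higher and 10 lower. All measured genes had a median of -0.16, and 9.4% were higher and 14.4% lower.

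**Figure D5:**
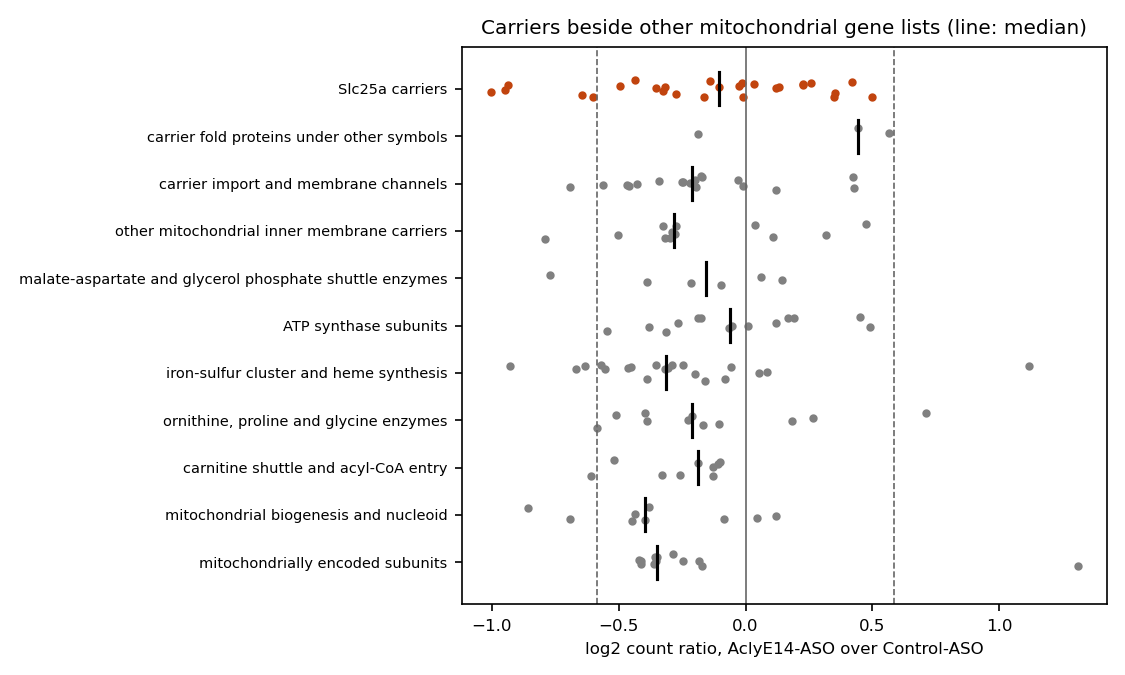
log2 count ratio of each measured gene, AclyE14-ASO over Control-ASO, for the carriers (orange) and 10 other mitochondrial lists (grey), with each median as a black line and dashed lines at 1.5-fold. The carrier median is -0.10, and the lists run from -0.40 (biogenesis and nucleoid) to 0.44 (carrier-fold proteins under other symbols, 3 genes).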

How the data were processed

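The libraries of 1 AclyE14-ASO and 1 Control-ASO macrophage culture were analysed from a table of raw gene counts and FPKM deposited by the authors, per the file headers. Per the submitters' processing notes, the tools were edgeR, HISAT2 and StringTie 1.3.0 and the build mm10, with no role stated. How reads were counted, and whether by strand, is not stated. The deposited FPKM equal the counts scaled to each library's count total and to 1 length per gene. Symbols came from GENCODE M21 (GRCm38, or mm10) for 34344 identifiers, and the other 401 held 0.123% of AclyE14-ASO and 0.164% of Control-ASO counts and stayed in the totals.

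Ratios were taken on counts per library total, and their exact 95% limits were derived by the Clopper-Pearson method on the AclyE14-ASO share of each gene's counts. Calls at 1.5-fold were made where the 2 libraries averaged 1 FPKM or more. No pseudocount was used, since many carriers are low. With 1 library per group no test was run. Pair ratios were compared with exact conditional intervals of the odds ratio. Carriers are named, and of each other mitochondrial list up to 2 called genes at each end and the most abundant, except 1 carrier and 1 list gene that count in the totals and are not reported here. The carriers, lists and pairs were chosen with earlier results of these data known. Near copies were sought with blastn at 95% identity over at least 200 bases of transcript. Alternatives were TMM factors, centring, FPKM + 1 and + 0.1, other level limits, 2-fold, sums with overlapping genes and, chosen after seeing the data, a limit of 100 counts, sums over either strand, removal of the length trend, coding transcript lengths and a sum without Slc25a5. Python 3.11.15, NumPy 2.4.6, pandas 2.3.3, SciPy 1.17.1, R 4.3.3 and edgeR 4.0.16 (TMM only) were used. The code for calls and intervals was run on simulated counts with counting error only. That check could not cover variation between cultures.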

Additional observations from a re-analysis of the deposited data

How the results depend on the processing

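The carriers called lower numbered 5 by library totals. They numbered 3 when centred on the median gene, 3 with TMM factors and 3 on FPKM + 1, and 1 each at a mean of at least 5 FPKM and at 2-fold. With no level limit beyond 1 count in each library, 10 of 37 were lower, where 17.3% of all 13472 such genes were lower. With a limit of 100 counts over both libraries in place of the FPKM limit, 6 of 29 were lower. Carriers called higher numbered 1 with centring and 1 with TMM factors and 0 in the other settings run. Carriers with a whole interval past the limit, 2 in the main setting, numbered 3 without the level limit and 3 with the limit of 100 counts. They numbered 1 at a mean of at least 5 FPKM and 0 at 2-fold. The median log2 ratio was 0.13 over the 14 carriers at 5 FPKM or more. The ratio of summed FPKM, 1.05, became 1.13 with TMM factors and 1.16 when centred. In the other mitochondrial lists, genes called higher numbered 7 when centred and 5 with TMM factors, and genes called lower 4 when centred, 6 with TMM factors and 2 at a mean of at least 5 FPKM. Of the 27 single ratios, 3 lay above their counting interval with TMM factors and 5 when centred. Centring and TMM move every ratio up by construction, for all genes alike, and the higher level limit tests fewer genes. Shares of all genes called are given only for library totals, at 1.5-fold and 2-fold, and without the level limit. Counts in the other settings are therefore not read as particular to the carriers or lists. Dropping the level limit adds genes of low level, a 2-fold limit can only lose calls, and FPKM + 1 moves ratios towards 1. No carrier shares exons with another listed gene on its own strand, so that sum changed nothing. Low counts limit Slc25a33, Slc25a32 and all carriers below 1 FPKM. No paired analysis was possible because each group has 1 library.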
